A study of Homo sapiens with 3 samples.

Results

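The regions described here are the 993 double-stranded RNA (dsRNA) regions, called mid-level, just under the height at which the deposited final set begins. They were chosen by their values: the summit, which is the peak height of read coverage in a region, lay from 300 to 1500 in both dsRNA libraries. They are 0.366% of the 271645 paired regions. The final set held the 1003 regions above 1500 in both libraries, and mid-level here means just under that cut. Most regions were far lower. The 35876 regions whose summits added up to at least 20 had median summits of 22 (wild type) and 15 (knockdown). The study sequenced 3 libraries from HEK 293 cells, an established human embryonic kidney line, with 1 library in each group. Wild-type cells and cells with a Dicer knockdown each gave 1 dsRNA library, and wild-type cells also gave 1 ChIP-seq library made with an antibody against Dicer. The labels do not say how Dicer was depleted, and the depth of the libraries is unknown. Of the deposited sheets, normal was taken to be wild type and induced to be knockdown. With 1 library per group there is no replicate error, so each ratio compares these libraries and carries no p-value.

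DICER is the ribonuclease that cuts long dsRNA and the hairpin precursors of microRNAs into short RNAs. T1 nuclease cuts single-stranded RNA after G, so the RNA that survives digestion is enriched for paired stretches, whether pairs between separate strands or helices folded within 1 molecule. Small structured RNAs such as tRNAs, snoRNAs, small nuclear RNAs and the 5S ribosomal RNA fold into such helices, and so do parts of messenger RNAs. Many tRNA, snoRNA and 5S genes have near-identical copies or pseudogenes, and reads from one copy may have been placed at another, which makes the value of any single copy uncertain. No source used here says whether reads were counted by strand.

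The mid-level regions filled their range unevenly, with more of them near its lower end. Their summits in wild type ran from 300 to 1499 with a median of 592, and in knockdown from 301 to 1493 with a median of 586. Together they held 682403 of the 80502410 units of summed summit height in wild type (0.848%) and 666394 of 84057405 in knockdown (0.793%). The paired intervals overlapped for all 993. In wild type alone, 1399 regions lay from 300 to 1500, and in knockdown alone 1291 did. Of the regions in range in wild type, 135 were above 1500 and 271 below 300 in knockdown. Of those in range in knockdown, 73 were above 1500 and 225 below 300 in wild type. The choice on both summits therefore left out the regions that differed most, and no unscaled ratio among the members could exceed 5.

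At the edges, small differences in 1 summit decided which regions were members. The region at chrY:20507994-20508102, with 300 in wild type and 311 in knockdown, was just inside. The region at chr1:43457105-43457183, with 299 and 853, was just outside. At the upper end, chr17:79477035-79478205 was inside with 1499 and 672, and chr3:33144526-33144624 was outside with 1408 and 1504. All positions are in hg19, and for dsRNA regions they are the deposited wild-type ones.

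**Figure D1:**
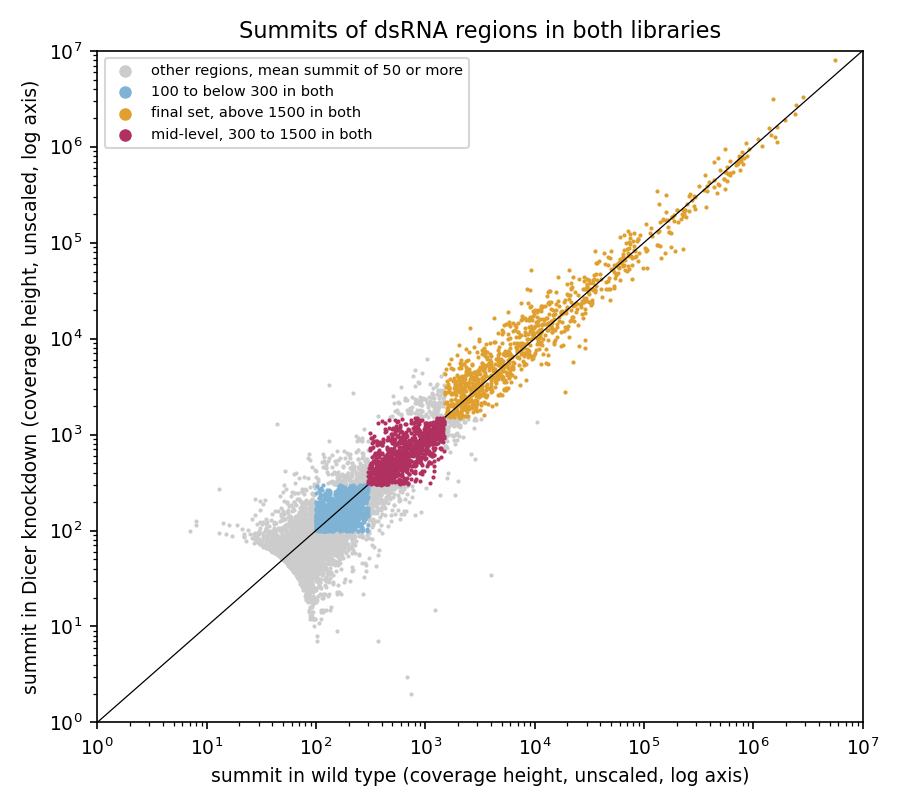
Summits of dsRNA regions in wild type (x axis) and Dicer knockdown (y axis), unscaled coverage heights on log axes, with 1 point per region of mean summit 50 or more and a line at equal heights. The 993 mid-level regions fill the square from 300 to 1500, between the class of 100 to below 300 and the 1003 regions of the final set.

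Knockdown summits were multiplied by 0.958, which equalises the sums of all summits, and the log2 ratio to wild type was taken after 1 was added to both. Because the summits chose the members, the ratios are a description. The median log2 ratio of the 993 was -0.14, with the middle 50% between -0.42 and 0.18, and it turned to 0.35 when the highest 1% of regions was left out of the sums and to 0.41 when the scaling was to the median ratio. It was -0.08 unscaled and -0.15 scaled to the sum of the final set. In this scaling 373 members were higher in knockdown (37.6%) and 620 were lower. Of all regions whose summits added up to at least 20, 35876 in number, 26.9% were higher. With the reduced sums 799 of the 993 were higher (80.5%, against 47.7% of the 35876), so the direction of the class as a whole rests on the scaling.

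Few members differed 2-fold or more. There were 36 at 2-fold or more higher (3.63%, against 5.07% of the 35876 regions) and 37 at 2-fold or more lower (3.73%, against 30.8%). With the reduced sums these became 113 and 4 (11.4% and 0.403%, against 11.5% and 18.4%), and with the median ratio 141 and 3 (14.2% and 0.302%, against 12.8% and 17.7%). The 35876 regions were mostly much lower, with a median height of 22 (wild type) and 15 (knockdown), against 592 and 586 among members. Nor did they have to lie in range in both libraries, as members did. How far height and that rule account for the differing 2-fold shares was not tested. If summit heights are read as read counts, equal summits of 300 give a 95% interval of 0.849 to 1.18 on their ratio, and equal summits of 1500 give 0.93 to 1.07, from counting error alone. The class of 100 to below 300 in both (1306 regions) had a median of -0.17, and the final set had 0.03. The order of these medians was the same under each of the 5 scalings, since a scaling moves regions of this height by nearly the same amount. In the scaling to all summits, the 95% interval of the mid-level median was -0.17 to -0.1. It overlapped that of the class of 100 to below 300, -0.2 to -0.14. The same summits defined these classes and form the ratio, so the medians are set side by side with no test.

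**Figure D2:**
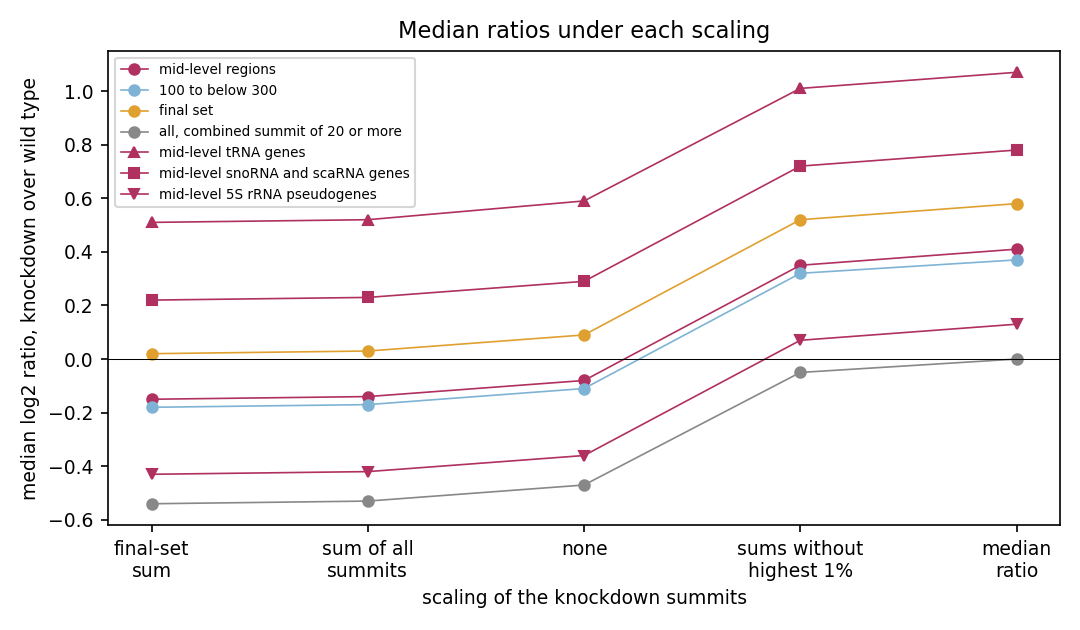
Median log2 ratio, knockdown over wild type (y axis), under the 5 scalings of the knockdown summits (x axis) for the mid-level regions, their tRNA, snoRNA with scaRNA and 5S pseudogene members, and the classes around them. The mid-level median goes from -0.15 to 0.41 and that of the 5S pseudogenes from -0.43 to 0.13, while the tRNA median stays between 0.51 and 1.07.

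Names could be given to 116 of the 993 members (11.7%), by matching the spacing of small RNA and histone genes in the RefSeq table of GRCh38.p14 to the spacing of regions. Ratios were not used for naming. No gene was placed when the gene order was mirrored. The other 877 members have no name here. Of the 116, 54 were tRNA genes, 24 were snoRNA or scaRNA genes, 14 were replication-dependent histone genes, 9 were 5S rRNA pseudogenes, 5 were U6 pseudogenes, 3 were other snRNA pseudogenes and 2 were microRNA genes. The named members had a median log2 ratio of 0.28 and the unnamed members -0.17. Named genes made up 26.4% of the final set and 4.90% of the class of 100 to below 300.

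The tRNA genes, which carry amino acids to the ribosome, were the largest named group and the one with the highest ratios among groups of more than 5. They were 5.44% of the members (exact 95% interval 4.11% to 7.04%), 2.45% of the class below and 9.77% of the final set. In the main scaling, to the sums of all summits, 45 of the 54 were higher in knockdown and 9 lower. Their median log2 ratio was 0.52, with the middle 50% between 0.16 and 0.88. In that scaling 8 were 2-fold or more higher while 0 were 2-fold or more lower. With the reduced sums 53 were higher and 1 lower, and with the median ratio 54 and 0. The tRNA median lay 0.66 above the median of all members under each scaling. The 32 tRNA genes of the class below had a median of 0.50 and the 98 of the final set 0.30.

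The highest ratio of all 993 members was at a proline tRNA gene. TRP-AGG2-5 (chr14:21077485-21077600) reached a summit of 1328 in knockdown against 373 in wild type, 3.40-fold higher. Its sister genes with the same anticodon, on chromosome 16, were also higher in knockdown. TRP-AGG2-8 (chr16:3239604-3239713) had 551 and 1363, and TRP-AGG2-7 (chr16:3232533-3232730) had 445 and 707. The log2 ratios of these 3 genes thus ran from 0.60 to 1.77. Copies of a valine tRNA with a CAC anticodon lay closer together. TRV-CAC1-1 (chr1:161369469-161369598) had 590 and 1198. TRV-CAC1-3 (chr5:180529151-180529348) had 744 and 1414. TRV-CAC1-6 (chr6:26538267-26538359) had 553 and 1104. Their log2 ratios were 0.86 to 0.96 on 3 chromosomes, although reads may be shared among such copies.

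Other tRNA members spanned 16 amino acids. The 5 alanine genes were all higher in knockdown, from 0.48 to 0.99 on the log2 scale, as were the 5 glutamine genes, from 0.17 to 0.90. The cysteine gene TRC-GCA11-1 (chr7:149112225-149112321) had a wild-type summit of 324 and a knockdown summit of 926. The serine gene TRS-GCT1-1 (chr6:27065062-27065166) had 428 and 1150, so both were well above 2-fold. The 1 methionine member, TRM-CAT1-1 on chromosome 8, had 425 and 1311. In the main scaling, genes for lysine, threonine, glycine, leucine, serine and valine went both ways. The lysine gene TRK-CTT1-2 (chr15:79152875-79153075) had 559 and 1390, while TRK-CTT5-1 (chr16:3230542-3230620) had 533 and 391, the lowest ratio among the tRNA genes at -0.51. Of the 4 threonine genes, 2 were higher and 2 lower in the main scaling, between -0.27 and 0.48. Regions at tRNA genes were 78 to 233 bp wide in wild type, with a median of 128 bp, and 27 of the 54 lay within 10 kb of a final-set region.

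snoRNAs guide chemical modification of ribosomal and spliceosomal RNAs, the C/D box class for ribose methylation and the H/ACA box class for pseudouridine, and scaRNAs do so in Cajal bodies. The 24 such members had a median log2 ratio of 0.23, with 17 higher and 7 lower in the main scaling. That median lay 0.37 above the median of all members. With the reduced sums and with the median ratio, 23 were higher and 1 lower. The H/ACA gene SNORA101B (chr14:36231984-36232149) had a wild-type summit of 321 and a knockdown summit of 920. The C/D gene SNORD125 (chr22:29729142-29729253) had 462 and 1159. Both stood more than 2-fold higher. In the other direction, SNORD3K (chr2:170672770-170672885), a copy of the U3 RNA used in ribosomal RNA processing, had 1006 and 692. The neighbouring copies SNORD70 and SNORD70B differed from each other. SNORD70 (chr2:203141143-203141252) had 1390 and 1450, close to equal after scaling, and SNORD70B (chr2:203142835-203142933) had 446 and 874. All 4 scaRNA members were above 0 in the main scaling, from 0.01 to 1.06.

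MicroRNA hairpins, the best known substrates of DICER, were represented by 2 members. MIR10A, a microRNA gene within the HOXB cluster, lay in a region of 266 bp at chr17:46657178-46657444, with summits of 585 (wild type) and 740 (knockdown), a log2 ratio of 0.28 that was above 0 under each scaling. The hairpin of MIR10A is shown because its paired arms are what DICER cuts, here from RefSeq (GRCh38.p14), with the stretches of the mature forms in capitals. In the mature sequences the capitals mark the seed, bases 2 to 8, which pairs with target messenger RNAs.
MIR10A hairpin: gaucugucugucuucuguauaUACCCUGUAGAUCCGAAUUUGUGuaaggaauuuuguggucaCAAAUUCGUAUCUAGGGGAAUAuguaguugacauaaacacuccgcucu
hsa-miR-10a-5p: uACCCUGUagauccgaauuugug
hsa-miR-10a-3p: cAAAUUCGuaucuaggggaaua
The region was wider than the 110 bases of the hairpin, so it also covers flanking RNA.

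The other microRNA member, at MIR320A on chromosome 8, had 840 in wild type and 1477 in knockdown, a log2 ratio of 0.75, and it too was higher under each scaling.

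The 9 pseudogenes of 5S ribosomal RNA, a structural RNA of the large ribosomal subunit, were all lower in knockdown in the main scaling, with a median log2 ratio of -0.42 that turned to 0.07 with the reduced sums and 0.13 with the median ratio. Their median minus that of all members was -0.28 under each scaling, and 8 of the 9 lay below the members' median. The 10 in the class of 100 to below 300 had a median of -0.05 in the main scaling. It lay 0.12 above the median of that class, and 6 of the 10 were above. The 25 in the final set had a median of -0.29, and its difference from the median of that set was -0.32. RNA5SP388 (chr14:78644154-78644279) had a wild-type summit of 1090 and a knockdown summit of 668. RNA5SP349 (chr11:108991594-108991735) had 1466 and 1103. The least different, RNA5SP319 (chr10:70221148-70221300), had 1097 and 1120. These 9 loci lie on 5 chromosomes, but reads from the 5S genes themselves may have been placed at them.

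Pseudogenes of other small nuclear RNAs went both ways in the main scaling. The 5 at U6, the catalytic RNA of the spliceosome, had a median of 0.42, with RNU6-31P (chr2:201694730-201694854) at 443 and 743 and RNU6-516P (chr15:40821753-40821893) at 549 and 465. With the reduced sums and with the median ratio, all 5 U6 pseudogenes were higher in knockdown, the lowest at 0.19 and 0.25. The 3 others had a median of -0.59, which stayed below 0 at -0.10 with the reduced sums and -0.04 with the median ratio. One of them, RNU2-14P (chr14:65591030-65591256), had 469 and 326. Among pseudogenes of 7SK, an RNA that holds back transcription elongation, RN7SKP268 (chr6:151640814-151641020) had 363 and 858, and RN7SKP90 (chr11:16863786-16864060) had 1304 and 1460.

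The 14 histone genes lay in wide regions and had a median ratio 0.11 above that of all members, with 12 of the 14 above it. Small RNA genes were searched only up to 450 bp and histone genes up to 900 bp, so the widths of named families are not compared. Replication-dependent histone messages lack a poly(A) tail and end in a conserved stem-loop, and their genes have no introns. Their regions were 413 to 802 bp wide with a median of 508 bp, and each differed from the length of its gene in the table by 68 bp or less. The naming rule bounds that difference, since a gene had to fall within its region to 10 bp and the region could be at most 200 bp wider. The linker histone gene H1-4 (chr6:26156544-26157346) gave a region of 802 bp for a gene of 787 bp, with summits of 1223 (wild type) and 1085 (knockdown). The core histone gene H4C2 (chr6:26027105-26027518) gave 413 bp for 388 bp, with 381 and 441. The log2 ratios of 12 of the 14 lay within 0.3 of 0 in the main scaling, and their median of -0.03 turned to 0.04 unscaled, 0.46 with the reduced sums and 0.52 with the median ratio. The exceptions were H2AC20 (chr1:149858462-149858970), with 335 and 531, and H4C5 (chr6:26204827-26205294), with 666 and 997. Histone genes were 1.41% of the members (exact 95% interval 0.773% to 2.35%) and 0.399% of the final set (0.109% to 1.02%). In the class of 100 to below 300 they were 0.459% (0.169% to 0.997%). The interval of the members overlapped both of the others.

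**Figure D3:**
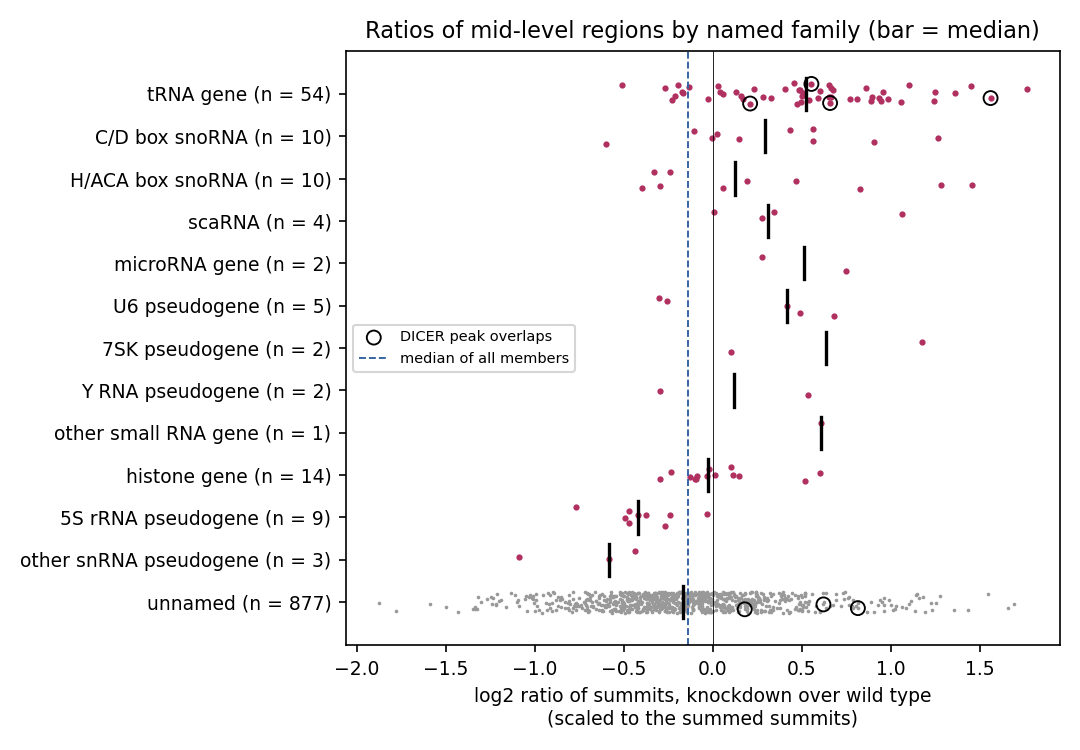
Log2 ratio of knockdown to wild type (x axis, scaled to the summed summits) for each mid-level region, by named family (y axis), with a bar at each median, a dashed line at the median of all members and a ring where a DICER peak overlaps. Of the 54 tRNA genes 45 lie above 0, the 14 histone genes cluster near 0, and the 9 5S pseudogenes lie below 0 in this scaling, though their median is above 0 with the reduced sums and with the median ratio.

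The extremes of the ratio differed in what they held. The 10 highest ratios were 2.56- to 3.40-fold, and 5 of these regions had a name, 4 of them tRNA genes. The 10 lowest were 2.49- to 3.67-fold lower, and none of these 10 had a name. Among all members at 2-fold or more, 13 of the 36 higher and 1 of the 37 lower were named, against 116 of all 993 (11.7%). A region could be at most 200 bp wider than the gene it was given, so wide regions were less open to a name. The part of this limit in the difference was not tested. The lowest ratio was at chr22:38890885-38891074, with a wild-type summit of 1111 and a knockdown summit of 315. The region at chr10:50911076-50911201 had 894 and 330, and that at chr9:7477056-7477612 had 1318 and 550. Members at 2-fold or more lower were wider, with a median of 185 bp in wild type, than those higher, with 128 bp.

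Mid-level regions were mostly short. The median width was 134 bp in wild type and 133 bp in knockdown, with a range of 25 to 2146 bp in wild type. The class below had a median of 126 bp in wild type and the final set 153 bp. The most common widths were from 75 to 100 bp, which held 187 members (18.8%). Width moved little between the libraries: 571 members (57.5%) kept it within 10 bp, as did 56.1% of the class below, 57.2% of the final set and 40.6% of the 35876 regions. None of the 993 doubled in width and 2 halved. In knockdown 443 were wider, 490 narrower and 60 equal. The regions that were narrower by more than a factor of 2 were chr2:177014995-177015256, at 261 bp in wild type and 108 bp in knockdown, and chr3:52722851-52723060, at 209 and 95 bp. The largest widening as a ratio was at chr5:171510909-171510955, from 46 to 84 bp. The alanine tRNA gene TRA-CGC3-1 went from 118 to 203 bp.

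**Figure D4:**
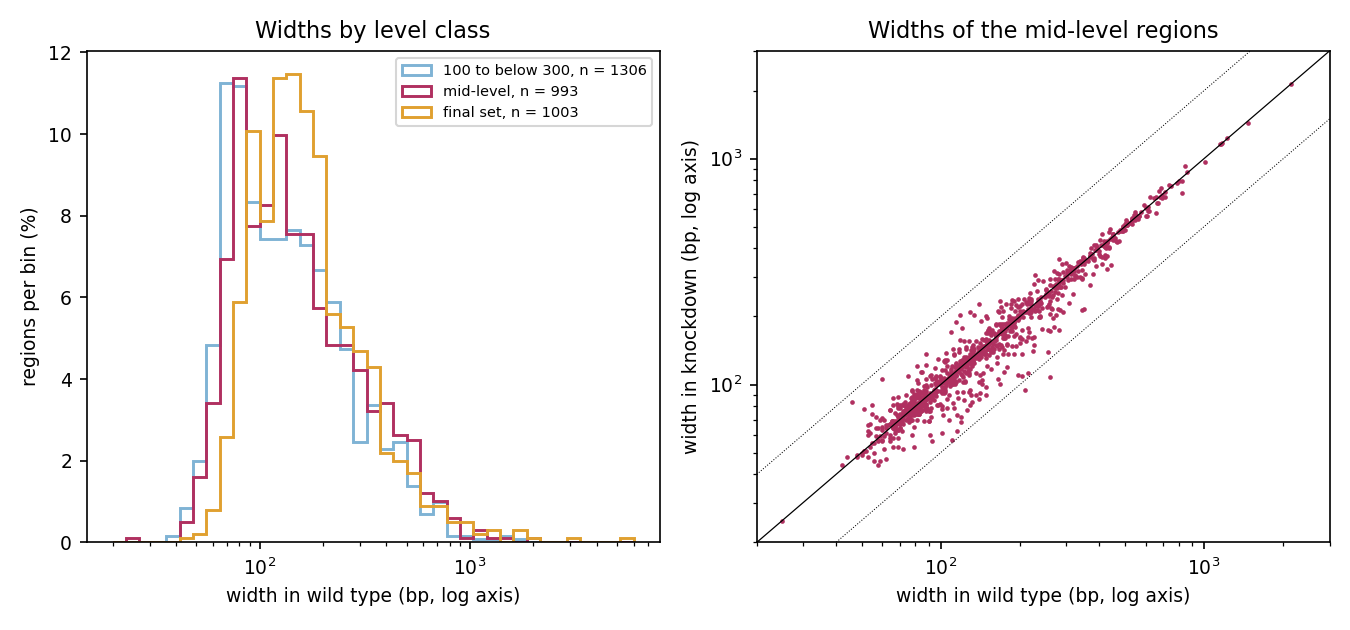
Left, widths of regions in wild type (x axis in bp, log axis) as a percentage of each class per bin, and right, width in knockdown against width in wild type for the mid-level regions in bp on log axes, with a line at equal widths and dotted lines at a factor of 2. The 993 points lie along the line of equal widths, and 2 fall below the lower dotted line.

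The wide members had a median ratio below that of the class. The 106 members of 400 bp or more had a median log2 ratio of -0.21, which turned to 0.29 with the reduced sums and 0.34 with the median ratio. Of the 106, only the 14 histone genes were named. The 7 members above 1000 bp had a median of -0.77, which stayed below 0 at -0.28 and -0.22. Several wide or crowded members lie in genes of abundant messenger RNAs. These 6 loci were recognised from general knowledge of hg19, with no annotation behind them, and were picked after their values were seen. ACTG1, which encodes gamma-actin, held 3 members. The first, chr17:79477035-79478205, had summits of 1499 (wild type) and 672 (knockdown), and the next, chr17:79478208-79479220, had 642 and 313. Their log2 ratios ran from -1.22 to -0.87 and were below 0 under each scaling.

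EEF2, which encodes a translation elongation factor, held 5 members from 3976020 to 3983406 on chromosome 19. Wild-type summits were 475 to 613 and knockdown summits 332 to 567, so all 5 were lower in the main scaling, while 1 of the 5 was higher with the reduced sums. SAT1, which encodes an acetyltransferase of polyamine breakdown, held 3 on chromosome X, with 735 to 1316 in wild type and 432 to 814 in knockdown. Again the members of 1 gene lay to the same side in the main scaling, and 1 of the 3 was higher with the reduced sums. RPLP0, which encodes a protein of the ribosomal stalk, held 6 from 120634497 to 120638715 on chromosome 12, with log2 ratios from -0.55 to 0.27. UBB, which encodes a ubiquitin precursor, held 1 member (chr17:16285216-16286079), with summits of 847 (wild type) and 606 (knockdown). TUBA1B, which encodes an alpha-tubulin, held 2. Over the 6 loci, 3 of 20 members were higher in the main scaling, 9 with the reduced sums and 12 with the median ratio. Of all 993 members, 37.6%, 80.5% and 83.9% were higher under these 3 scalings. Where a gene such as EEF2 holds several members, they may be parts of 1 transcript and are not separate measurements.

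Members were spread over the genome with a few dense spots. Chromosome 1 held the most, 101 (10.2%), and chromosome 6 held 87 (8.76%, against 4.59% of all 271645 regions and 6.88% of the final set). Of the 661 windows of 1 Mb with a member, 478 held a single one, and the 12 windows with 6 or more held 102 members. The densest were on chromosome 6 from 27 to 28 Mb, with 18 members and 15 final-set regions, and from 26 to 27 Mb, with 12 and 5. From 26 to 29 Mb of that chromosome there were 38 members, of which 17 were tRNA genes and 10 histone genes. In the main scaling 23 of the 38 were higher in knockdown, against 37.6% of all members.

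Mid-level regions lay nearer to the final set than lower regions did, and farther than final-set regions lay from each other. Of the 993, 156 were within 10 kb of a final-set region (15.7%, exact 95% interval 13.5% to 18.1%). In the class below the share was 8.19% (6.76% to 9.81%), and 30.8% of final-set regions (28.0% to 33.8%) had another within 10 kb. These intervals do not overlap, but they cover counting error only and neighbouring regions are not independent. Within 1 kb the share was 8.66%, and within 100 kb 28.0%. The median gap was 703 kb for the mid-level regions, 900 kb for the class below and 281 kb within the final set. To the nearest other member, 239 (24.1%) lay within 10 kb.

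The 156 near members were wider and had a higher median ratio than the rest. Their median width was 188 bp in wild type, against 128 bp for the 837 farther away, and their median log2 ratio was -0.02 against -0.15, while 27 of the 156 were tRNA genes. The part of those genes in the difference was not tested. Gaps were measured between knockdown intervals, while the positions printed are those of wild type. The smallest gap was 4 bp, at chr13:27829314-27829663, where a member of 416 (wild type) and 571 (knockdown) sat beside a final-set region with 2267 and 3038. At chr15:66794946-66795125 a member with 1428 and 956 lay 7 bp from a final-set region with 27759 and 33233, so the neighbours differed in direction there. Such pairs may be parts of 1 transcript that the region calling split, which was not tested.

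**Figure D5:**
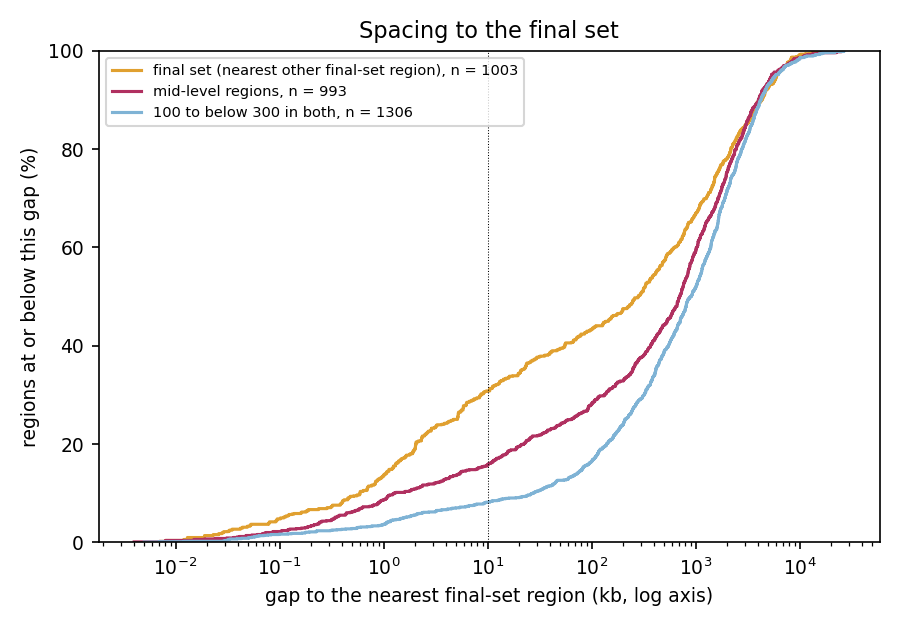
Percentage of regions (y axis) whose gap to the nearest final-set region is at or below the value on the x axis (kb, log axis), for the mid-level regions, the class of 100 to below 300 and the final set itself. At the dotted line of 10 kb the curves stand at 15.7%, 8.19% and 30.8%.

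A DICER ChIP-seq peak lay at few of the mid-level regions, though at a larger share than among all regions. The deposited list held 119 peaks, each with the authors' own score, and no control ChIP library was analysed here. A peak overlapped 7 of the 993 members by 1 bp or more (0.705%, exact 95% interval 0.284% to 1.45%). In the class of 100 to below 300 it was 2 of 1306 (0.153%, 0.0186% to 0.552%), and in the final set 51 of 1003 (5.08%, 3.81% to 6.63%). The mid-level share lay between the others, below the interval of the final set, while its interval overlapped that of the class below. Within 10 kb of a peak there were 19 members (1.91%), against 0.689% in the class below and 7.78% of the final set. Over all 271645 regions 0.0423% were overlapped and 0.244% lay within 10 kb, and over the 35876 regions 0.240% and 0.702%. For overlap the interval of the 35876 regions, 0.192% to 0.296%, overlapped that of the members.

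All 7 members at a peak were higher in knockdown, with log2 ratios from 0.18 to 1.56 in the main scaling and above 0 under each scaling. Of all members 37.6% were higher in the main scaling, 80.5% with the reduced sums and 83.9% with the median ratio. Of these, 4 were tRNA genes, a family whose members were mostly higher with or without a peak, and the part of this in the count was not tested. The highest-scoring of the 7 peaks, at 153.3, was at chr1:94312892-94313381 over an unnamed member of 874 (wild type) and 1405 (knockdown). The alanine gene TRA-CGC3-1 (chr2:157257250-157257368) had 903 and 1385 under a peak of score 132.8. That peak also covered a final-set region, 238 bp away between the knockdown intervals. The leucine gene TRL-TAA3-1 (chr11:59319215-59319296) had 389 and 642, and its peak, of score 112.8, also covered a final-set region.

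The other 4 members at peaks had no final-set region under the same peak, and neither did the member at the highest-scoring of the 7 peaks. The methionine gene TRM-CAT1-1 on chromosome 8, with 425 and 1311, had the largest ratio of the 7, 2.95-fold. The valine gene TRV-AAC3-1 (chr6:27618580-27618808), whose region also covers TRT-CGT5-1, had 1102 and 1331 under the peak with the lowest score of the 7, 104.0. The unnamed regions chr2:43037661-43038012, with 583 and 1072, and chr1:161500876-161501174, with 481 and 569, had scores of 115.6 and 117.0. All 7 peaks scored between 104.0 and 153.3, in a list whose median was 127.0 and whose highest score was 1054. In knockdown 5 of the 7 regions were wider. Of the 19 members within 10 kb of a peak, 8 were tRNA genes. In the main scaling 14 of the 19 were higher, against 37.6% of all members. With the reduced sums and with the median ratio all 19 were, against 80.5% and 83.9% of all members.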

How the data were processed

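Each deposited dsRNA sheet lists regions with a summit, a coverage signal in whole numbers that the authors did not scale by library size. Both dsRNA samples carry the same workbook, so the sheets were assigned by their names, normal to wild type and induced to knockdown, and every direction reverses if that is wrong. The deposited peak list gives the authors' score for each peak, and the deposited final set gives positions only. Per the labels' protocols, total RNA was digested with T1 nuclease and read as 50 bp paired ends. Per the submitters' processing notes, Bowtie 0.12.7 and MACS 1.4 (ChIP) and bcl2fastq 1.8.4 and BWA 0.7 (dsRNA) were used with hg19. How regions were called, the placing of reads with several matches, and whether region coordinates count from 0 or 1 are not given in the sources used here. Peak positions are printed counting from 1.

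Regions were paired by row. Ratios used a pseudocount of 1, which hardly moves values at this height. Shares carry exact binomial (Clopper-Pearson) 95% intervals and medians order-statistic intervals, which cover counting over regions only. A gene was given to a region when at least 6 genes within 20 Mb fell in regions at 1 shift, set by the other genes, with a tolerance of 10 bp, regions at most 200 bp wider than the gene, and any rival place taking at most 0.5 times as many. Small RNA genes up to 450 bp and histone genes up to 900 bp were searched, 7352 in all, in regions of mean summit 100 or more, and no coordinate of that table is printed. The members, families and lists were chosen with earlier results of these data known, and the naming settings, the histone genes and the families after seeing the data. Regions named in the text are the 10 highest and lowest ratios, the 10 widest, those closest to the final set, those at peaks, those at the edges of the range, the largest width ratios and the named genes, with only some printed; other named members were chosen after their values were seen. The steps were tested on simulated data. Python 3.11.15, numpy 2.4.6, pandas 2.3.3, scipy 1.17.1 and matplotlib 3.10.9 were used. Alternatives were other scalings, pseudocounts, summit rules, gaps and peak scores. There were no tests across samples, since each group has 1 library.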

Additional observations from a re-analysis of the deposited data

How the results depend on the processing

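Scaling decided the direction of the class: the median log2 ratio was 0.41 with the median ratio and 0.35 with the sums without the highest 1%, and -0.08 unscaled. The 5S pseudogenes turned to 0.13 and 0.07 under the same 2 scalings. Members at 2-fold or more higher then numbered 141 and 113, and lower 3 and 4. Rules on the summits moved these counts by taking in or leaving out regions. The mean summit from 300 to 1500 gave 115 higher and 109 lower, both summits from 400 to 1200 gave 9 and 10, the wild-type summit alone gave 99 and 149 with a median of -0.21, and the knockdown summit alone gave 130 and 59 with a median of -0.05. Members 10 kb or more from the final set had a median width of 128 bp, and 0.717% of them lay near a peak. A gap of 1 kb held 8.66% and one of 100 kb 28.0%. With peaks of score 200 or more, 0 members were overlapped, which allows a share of up to 0.302% (3 counts of 993), and 0.101% lay within 10 kb. Of 82 alternatives, 51 stayed within the range set for them. Alternatives for naming and families were added after seeing the data: the settings named 84 to 124 members, 102 without histone genes, with a tRNA median of 0.51 to 0.57. Library depth is unknown, so the files do not decide between the scalings. No paired analysis was possible because there is a single library in each group.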
